A study of Saccharomyces cerevisiae with 22 samples.

Results

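The 37 genes described here code for the proteasome of budding yeast, for its assembly factors and for its transcription factor, and they were chosen by gene name with no measured value in the rule. They comprise 14 core 20S subunits (7 alpha and 7 beta), 7 subunits of the 19S base, 7 of the 19S lid, the transcription factor RPN4, 4 factors that assemble or activate the core (UMP1, POC4, ADD66 and BLM10), 3 chaperones of 19S assembly (HSM3, NAS6 and RPN14) and the tether ECM29. All 37 were found among the 6225 genes on the array and among the 5912 genes tested. Each had at least 1 spot well above background on every one of the 22 arrays.

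Expression was measured in 8 groups of samples, 1 array per sample, to compare strains that had evolved under a high rate of translation errors with their ancestor. The groups with the mistranslating plasmid were the evolved lineages B3, D11 and H9 and the ancestor, with 3 arrays each. The groups with the empty vector were B3 with 2 arrays, D11 and H9 with 3 each, and the ancestor with 2. Every strain was a self-diploid of the BY4742 background, carried deletions of HIS3, LEU2, LYS2 and URA3, and was grown in synthetic medium without leucine. The mistranslating plasmid is a single-copy LEU2 plasmid with a serine tRNA gene of Candida albicans that reads the leucine codon CUG, so that serine is put in place of leucine at some of these codons. The empty vector is the same kind of plasmid without the tRNA gene, and in the evolved lineages it replaced the tRNA plasmid after evolution. Each lineage stands for 1 evolved line, and the labels do not tie B3, D11 or H9 to the numbered lines of the study. The labels and the study's text differ on how long evolution lasted, and no length is given here. The lineages are compared as 3 single lines. Nothing in the labels says whether replicate arrays came from separate cultures, so the p-values measure the spread between these arrays only.

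The 26S proteasome degrades proteins that carry ubiquitin. Its 20S core is a barrel of stacked rings whose inner beta subunits Pre3, Pup1 and Pre2 hold the proteolytic sites and whose outer alpha rings form the gate. The 19S cap binds ubiquitin chains, removes them and feeds the unfolded protein into the barrel with a ring of ATPases, the Rpt proteins. In yeast most of these genes share a promoter element bound by Rpn4, an activator that the proteasome itself degrades, and the genes are known to rise together when proteolysis falls behind.

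Levels are given as log2 processed signal with the median of each array set to 0, and differences are differences of group means on that log2 scale. The median signal of the arrays ran from 356 to 2278 and the share of spots well above background from 85.8 to 95.0%, with D11 with the empty vector replicate 3 lowest in both. Each probe has 2 spots. On 20 of the arrays 23 to 59 of the probes had spots more than 2 log2 units apart, but on D11 with the empty vector replicate 3 there were 716 (11.5%) and on D11 with the tRNA replicate 2 there were 362 (5.84%). The dim spot was the same spot on both arrays for 291 probes, which is 40.6% of the probes of D11 with the empty vector replicate 3 and 80.4% of those of D11 with the tRNA replicate 2. These spots carried no outlier flag. Among the proteasome genes, 6 probes were affected on the first of these arrays (RPT4, RPN7, BLM10, NAS6, PUP2 and RPN6) and 3 on the second (RPT4, BLM10 and RPN7), and none on any other array. Values for D11 are therefore also given without these 2 arrays and with the dimmer spot left out, both chosen after the data had been seen. Among the markers, LEU2 and the alpha mating-type genes MATALPHA1 and MATALPHA2 were well above background on all 22 arrays, LYS2 on 0, HIS3 on 5 and URA3 on 4.

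The proteasome genes differed little between the groups. Of 37, the number called higher or lower at a Benjamini-Hochberg adjusted p under 0.05 (limma, over 5912 genes) was at most 4 in any comparison between a lineage and the ancestor or between the plasmids, and none of these calls reached 2-fold. In B3 with the tRNA 1 member rose and 0 fell relative to the ancestor carrying the same plasmid, beside 2.66% and 1.44% of all genes. In B3 with the empty vector 1 rose and 0 fell, beside 5.99% and 5.94% of all genes. In D11 with the empty vector 1 rose and 3 fell, beside 16.5% and 11.7% of all genes. In D11 with the tRNA no member was called (1 at an unadjusted p under 0.05), beside 5.8% of all genes higher and 1.88% lower. In H9 no member was called with the tRNA (4.65% of all genes higher, 6.73% lower) or with the empty vector (1.71% higher, 1.52% lower), where 1 and 3 members had an unadjusted p under 0.05. The members varied less between replicates than all genes did, with a median SD within groups of 0.15, against 0.19 over all genes tested. Only RPT4 (0.96) and RPN7 (0.71) had an SD above 0.36, and both are among the probes with 1 dim spot.

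**Figure D1:**
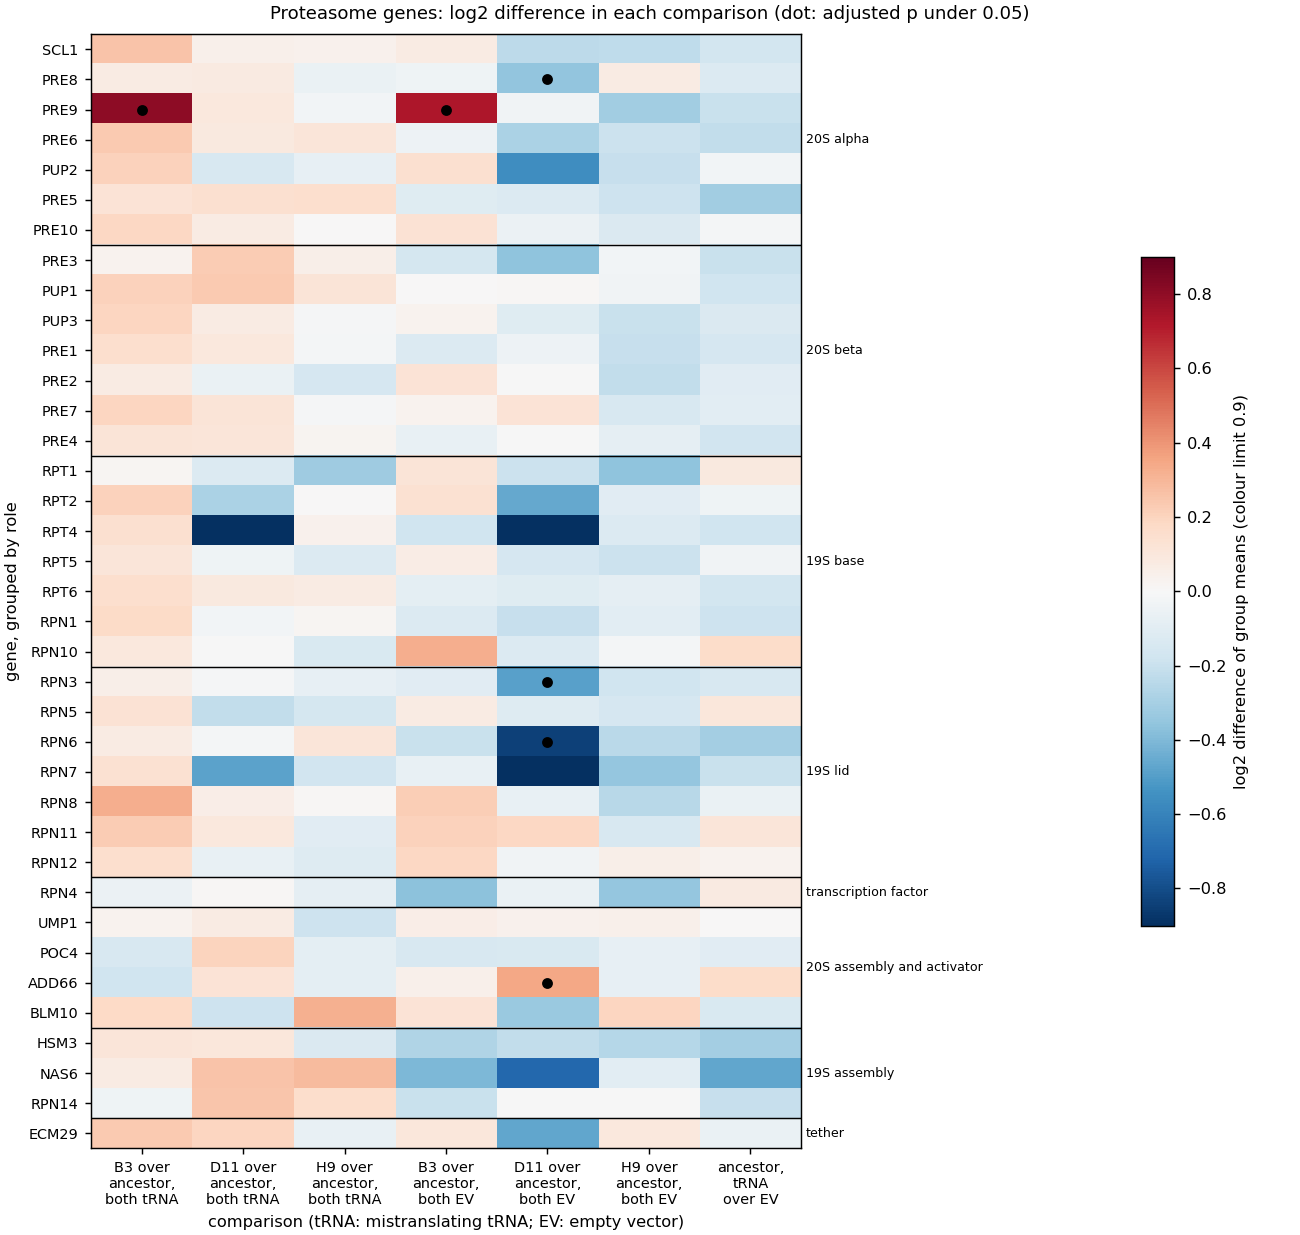
Log2 difference of group means for each of the 37 genes (rows, by role) in 7 comparisons (columns), with a dot where the adjusted p is under 0.05. PRE9 stands out in both B3 columns at 0.81 and 0.72, and the dark blue cells of RPT4 and RPN7 lie in the D11 columns, where their probes have 1 dim spot.

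Of the 37 genes, PRE9 was the 1 that limma called higher in B3 than in the ancestor. It codes for an alpha ring subunit of the core, the only core subunit that yeast can live without, since another copy of Pre6 can take its place. It is also the 1 member that lies in the stretch of chromosome VII which the study lists with an extra copy in an evolved line, without a label that says whether that line is B3. Its level was 4.31, 4.35 and 4.22 in B3 with the tRNA, against 3.61, 3.35 and 3.49 in the ancestor with the tRNA. Carrying the empty vector, B3 had 4.40 and 4.42, against 3.73 and 3.63 in the ancestor. The groups did not overlap with either plasmid. The difference was 0.81 ± 0.14 (SE) with the tRNA, a 1.75-fold increase (adjusted p = 0.00252, limma), and 0.72 ± 0.17 with the empty vector, a 1.65-fold increase (adjusted p = 0.0125, limma). With the empty vector the call was lost when either B3 array or either ancestor array was left out (adjusted p up to 0.105), since 1 array then remained in a group.

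PRE9 was higher in B3 than in the other lineages. Its level was 3.63, 3.66 and 3.45 in D11 with the tRNA and 3.52, 3.54 and 3.33 in H9 with the tRNA. Under the empty vector it was 3.51, 3.48 and 3.97 in D11 and 3.34, 3.11 and 3.65 in H9. All 5 B3 arrays thus lay above all 17 other arrays, the lowest of them at 4.22 and the highest other array, D11 with the empty vector replicate 3, at 3.97. Tested directly, B3 exceeded D11 by 0.71 ± 0.14 with the tRNA (adjusted p = 0.00291, limma) and by 0.75 ± 0.16 with the empty vector (adjusted p = 0.00422, limma), of which the second was lost without B3 with the empty vector replicate 2 (adjusted p = 0.0564) and when only the groups compared were fitted (adjusted p = 0.196). It exceeded H9 by 0.83 ± 0.14 (adjusted p = 0.000569, limma) and by 1.04 ± 0.16 (adjusted p = 0.000232, limma). Among all genes, 1.93% likewise had all 5 B3 arrays above the other 17, and among the 37 RPN8 was the other one that did.

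No other core subunit was called in B3 against the ancestor by limma with all 8 groups, and PRE9 stood apart from them on every B3 array. In B3 with the tRNA its difference from the ancestor mean exceeded the median of the other 13 by 0.61 to 0.67 on the 3 arrays, against -0.15 to 0.09 in the ancestor with the tRNA, and the group means differed by 0.65 (two-sided exact permutation test, p = 0.1, the smallest that 3 against 3 arrays allow). Under the empty vector the excess was 0.71 and 0.73 in B3, against -0.05 and 0.05 in the ancestor (difference 0.72, exact permutation p = 0.333, the smallest that 2 against 2 arrays allow). Neither design can reach 0.05. At p under 0.01 the methods' t-test also had SCL1 at 0.25 and PUP1 at 0.21 in B3 with the tRNA and PRE4 at -0.07 with the empty vector. After Benjamini-Hochberg adjustment of that test these were at 0.106, 0.11 and 0.0312, and no share of all genes was counted for it. The 6 other alpha subunits differed from the ancestor by 0.08 to 0.25 in B3 with the tRNA and by -0.11 to 0.15 with the empty vector. Set against the 112 genes tested in the same stretch of chromosome VII, PRE9 ranked 13 from the top in B3 with the tRNA, where their median was 0.55, and 26 from the top with the empty vector, where their median was 0.46.

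**Figure D2:**
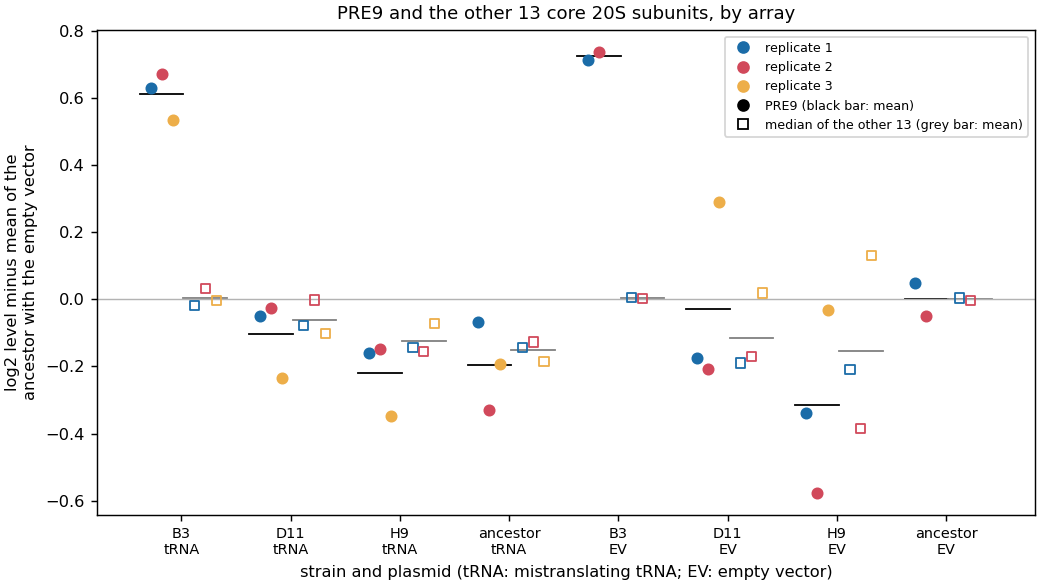
Level of PRE9 (filled circles, black bar for the mean) and median of the other 13 core subunits (open squares, grey bar for the mean) on each of the 22 arrays, in log2 units relative to the mean of the ancestor with the empty vector. PRE9 lies between 0.53 and 0.74 on the 5 B3 arrays, where the median of the others lies between -0.02 and 0.03.

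Outside PRE9 none of the 37 was called in B3 against the ancestor by limma with all 8 groups, and most had a slightly higher mean than in the ancestor when both carried the tRNA. In B3 with the tRNA 33 of the 37 had a higher mean than in the ancestor with the tRNA, with a median difference of 0.14 (0.13 without PRE9), beside a median of 0.01 over all genes, of which 52.6% were higher. All 28 core and cap subunits were on that side, by 0.01 to 0.81. The next largest after PRE9 were RPN8, a lid subunit that holds the deubiquitinase Rpn11, at 0.33 (adjusted p = 0.212, limma) and SCL1, an alpha ring subunit, at 0.25 (adjusted p = 0.324, limma). RPN8 had levels of 2.76, 3.01 and 2.84 in B3 with the tRNA, against 2.45, 2.60 and 2.57 in the ancestor with the tRNA, without overlap. RPN4 itself differed by -0.05. On slides 1, 2 and 3 the median was 0.05, 0.13 and 0.16. Between the strains with the empty vector, 20 of 37 had a higher mean in B3, with a median of 0.03, beside -0.01 over all genes. When only these 2 groups were fitted, 3 members rose and 5 fell in B3 with the empty vector. No share of all genes was counted for that fit, so these counts cannot be set against the genes at large. Across the lineages, 3 members rose in B3 against H9 with the empty vector (PRE9, RPN8 by 0.47 and the base ATPase gene RPT1 by 0.48), beside 25.1% of all genes called in either direction. With the tRNA only PRE9 did, beside 16.5%. Against D11, PRE9 and RPN3 rose with the empty vector (10.5% of all genes called) and PRE9 and RPN5 with the tRNA (10.5%). The empty-vector calls of RPN8 and RPT1 against H9 and of RPN3 against D11 were lost when only the groups compared were fitted (adjusted p = 0.182, 0.198 and 0.364).

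In the limma fit of all 8 groups, D11 with the empty vector had the most of the 37 called against the ancestor, 1 higher and 3 lower. When only the 2 groups were fitted none of the 4 was called (adjusted p = 0.124 for RPN3, 0.196 for RPN6, 0.228 for PRE8 and 0.195 for ADD66), and the methods' t-test had 0 members at p under 0.01. RPN3, a lid subunit with a scaffold role, had levels of 2.13, 2.16 and 1.85 in D11 with the empty vector, against 2.54 and 2.53 in the ancestor with the empty vector. It fell by 0.49 ± 0.10 (SE; adjusted p = 0.00282, limma). RPN6, the lid subunit that clamps the cap to the core, had levels of 3.06, 2.92 and 2.02 in D11, against 3.53 and 3.47 in the ancestor, and fell by 0.84 ± 0.21 (adjusted p = 0.00841, limma). The alpha ring subunit gene PRE8 had 2.36, 2.33 and 2.05 in D11, against 2.63 and 2.57 in the ancestor, and fell by 0.36 ± 0.12 (adjusted p = 0.0411, limma). In these 3 genes all D11 arrays lay below both ancestor arrays, and replicate 3 was the lowest. ADD66, whose product works with Pba1 as a chaperone of alpha ring assembly, had 1.62, 1.49 and 1.66 in D11, against 1.32 and 1.18 in the ancestor, and rose by 0.34 ± 0.10 (adjusted p = 0.0222, limma). Leaving out single arrays, RPN3 was called every time, RPN6 and ADD66 lost their calls without either ancestor array (adjusted p up to 0.0689 and 0.193), and PRE8 lost it in 10 of 22 cases (adjusted p up to 0.197).

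The size and the number of these D11 differences depended on the array with the dim spots. Without D11 with the empty vector replicate 3 and D11 with the tRNA replicate 2, RPN3 fell by 0.39 (adjusted p = 0.00448, limma) and RPN6 by 0.51 (adjusted p = 0.00577, limma), ADD66 rose by 0.31 (adjusted p = 0.0436, limma), and PRE8 was at -0.26 (adjusted p = 0.0952). RPN1, a scaffold of the base that receives ubiquitin shuttle proteins, RPN7 of the lid and the chaperone gene HSM3 then fell as well, by 0.36, 0.44 and 0.41, so that 5 members fell and 1 rose, beside 16.9% and 15.7% of all genes. With the dimmer spot of each disagreeing pair left out, 8 members fell and 0 rose, beside 17.5% and 17.7% of all genes. These were RPN3 (-0.58), RPN6 (-0.56), ECM29 (-0.55), PRE3 (-0.45), PRE8 (-0.44), RPN7 (-0.43), PRE6 (-0.37) and RPN1 (-0.29), while ADD66 was at 0.26 (adjusted p = 0.0651). Of the members that fell, only RPN6 and RPN7 had a disagreeing pair on D11 with the empty vector replicate 3. Arrays were centred after the dim spots were dropped, which lowered the other genes on that array too. There RPN3 went from 1.85 to 1.59 and PRE6 from 3.26 to 3.00. RPN3 and RPN6 were called in all 3 of these fits with 8 groups.

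**Figure D3:**
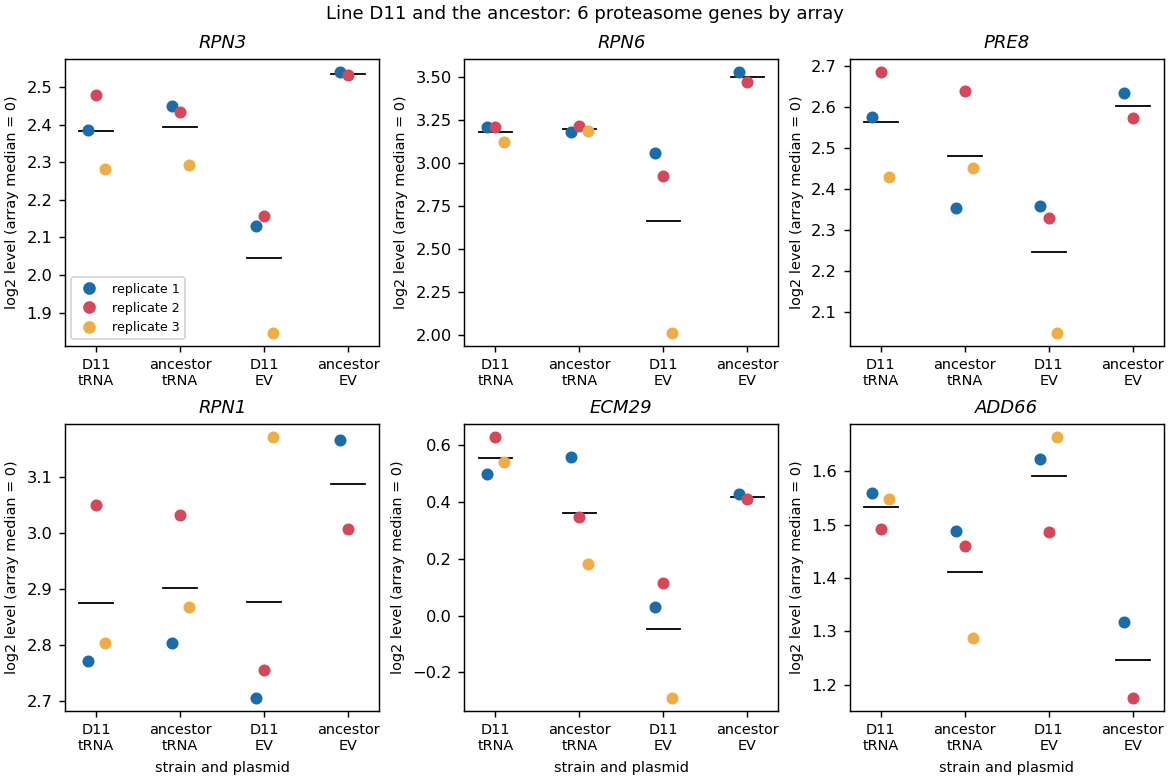
Log2 level of 6 proteasome genes on each array (points, coloured by replicate number, with a bar for the group mean) in D11 with the tRNA, the ancestor with the tRNA, D11 with the empty vector and the ancestor with the empty vector. The group mean of D11 with the empty vector is the lowest of the 4 for RPN3, RPN6, PRE8 and ECM29 and the highest for ADD66.

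As a group the D11 members with the empty vector lay below the ancestor. Of 37, 32 had a lower mean, with a median of -0.12, beside 0.02 over all genes, of which 51.5% were higher. The 7 base subunits all had lower means, from -0.11 to -1.20, and so did the 7 alpha subunits, from -0.03 to -0.56. The lowest of each, RPT4 and PUP2, have 1 dim spot on replicate 3. They were at -0.03 and -0.13 with the dimmer spot left out, and at -0.25 and -0.15 without both arrays with dim spots. On slides 1 and 2 the median was -0.22 each, with 3 and 4 of 37 members higher. Replicate 3 had a median of 0.06 above the ancestor mean, but the median of all genes tested on that array was 0.21. Without both arrays the median was -0.20, with 3 of 37 higher, beside -0.01 over all genes.

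The most negative differences in D11 with the empty vector, those of RPN7 and RPT4, came with 1 dim spot on replicate 3. RPT4, an ATPase of the base ring, had levels of 0.94, 1.25 and -1.75 in D11 with the empty vector, against 1.27 and 1.42 in the ancestor. On replicate 3 its brighter spot was at 2.01 and its dimmer spot at -5.51. RPN7 of the lid had 1.30, 1.47 and -1.93 in D11, against 1.83 and 1.83 in the ancestor, with spots at 1.69 and -5.54 on replicate 3. Neither difference passed the test (RPT4 -1.20 ± 0.86 SE, adjusted p = 0.305; RPN7 -1.55 ± 0.64, adjusted p = 0.0812, limma). With the tRNA, RPT4 had 1.13, -2.51 and 1.21 in D11, against 1.21, 1.24 and 1.05 in the ancestor, and its spots on D11 replicate 2 were at 1.43 and -6.45. With the dimmer spot left out the differences in D11 with the empty vector were -0.03 for RPT4 (adjusted p = 0.906, limma) and -0.43 for RPN7 (adjusted p = 0.0133, limma). RPT4 on replicate 3 was then at 1.76, from its brighter spot alone. Without both D11 arrays with dim spots RPT4 differed by -0.25 (adjusted p = 0.108, limma). In the deposited log2 table it differed by -0.41 and was called (adjusted p = 0.0155, limma).

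**Figure D4:**
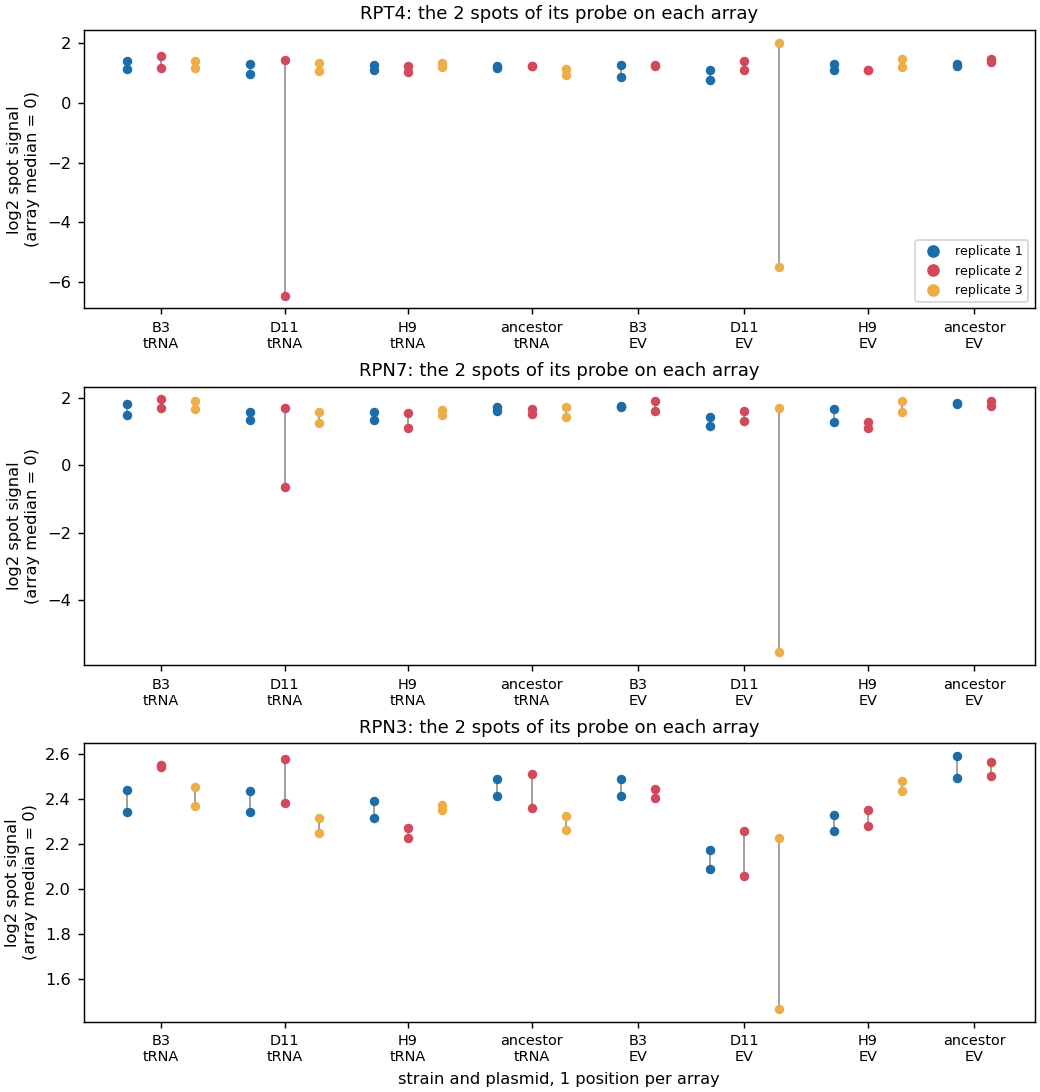
Log2 signal of the 2 spots of the RPT4, RPN7 and RPN3 probes on each array (points joined by a grey line, coloured by replicate number; each panel has its own scale). The RPT4 spots are 7.52 log2 units apart on D11 with the empty vector replicate 3 and 7.89 apart on D11 with the tRNA replicate 2, and the RPN3 spots stay within 1 unit on all arrays.

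When both carried the tRNA, the D11 values of RPN3 and RPN6 overlapped those of the ancestor. RPN3 had 2.39, 2.48 and 2.28 in D11 with the tRNA, against 2.45, 2.43 and 2.29 in the ancestor with the tRNA, a difference of -0.01 ± 0.09 (SE). RPN6 had 3.21, 3.21 and 3.12 in D11, against 3.18, 3.22 and 3.19 in the ancestor. No member was called in this comparison by limma. At an unadjusted p under 0.05 there was 1, PUP1, which codes for a proteolytic beta subunit, at 0.23 (adjusted p = 0.231). At p under 0.01 in the methods' t-test there were 2 (PUP1 higher and the lid gene RPN5 lower). Neither passed after Benjamini-Hochberg adjustment of that test (0.0624 and 0.0607), and no share of all genes was counted for it. The next smallest p in limma was that of the chaperone gene RPN14, at 0.25 (adjusted p = 0.25). The median of the members was 0.08, beside 0.07 over all genes, and 0.04 without the 2 arrays with dim spots.

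The response of RPN3 to the tRNA differed between D11 and the ancestor. The difference between tRNA and empty vector was 0.34 ± 0.09 in D11 (SE; adjusted p = 0.066) and -0.14 ± 0.10 in the ancestor (adjusted p = 0.366), and the difference of these responses was 0.48 ± 0.14 (adjusted p = 0.0345, limma). The call was lost when any of 6 single arrays of the 4 groups was left out, with values from 0.38 to 0.54, and when only the groups compared were fitted (adjusted p = 0.101). It was the 1 member called higher in this contrast and 0 were called lower, beside 7.22% and 6.12% of all genes. Without the 2 arrays with dim spots the value was 0.33 (adjusted p = 0.0528), and NAS6 and RPN6 were called instead, at 0.72 and 0.48. Of all genes, 15.5% were then called higher and 11% lower. With the dimmer spot left out, RPN3, RPN6, PRE3 and POC4 were called, at 0.53, 0.51, 0.64 and 0.39. In that fit 13.1% of all genes were called higher and 9.42% lower. The direction was the same for most members, 30 of 37 being positive with a median of 0.18, beside 54.6% of all genes with a median of 0.06.

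The responses of B3 and H9 minus that of the ancestor held no member past the threshold. In B3 31 of 37 were positive (median 0.15, beside 0.04 over all genes, of which 53.8% were positive), none with an unadjusted p under 0.05. Of all genes, 0.203% and 0.152% were called higher and lower. In H9 29 were positive (median 0.13, beside 0.08 over all genes, of which 61.2% were positive), again none with an unadjusted p under 0.05. Of all genes, 0.152% and 0.372% were called higher and lower. These 3 contrasts share the ancestor arrays, and in the ancestor itself 29 of 37 members were lower with the tRNA, so the 3 counts are not independent of each other.

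Between tRNA and empty vector none of the 37 was called in the ancestor, beside 7.98% of all genes higher and 11.1% lower (limma). The median was -0.13, beside -0.07 over all genes, and all 14 core subunits had a lower mean with the tRNA, from -0.02 to -0.31. PRE5, an alpha subunit gene, had levels of 3.39, 3.32 and 3.20 with the tRNA, against 3.56 and 3.67 with the empty vector, which did not overlap. Its difference was -0.31 ± 0.14 (SE; unadjusted p = 0.0352, adjusted p = 0.118), and it was the 1 member with an unadjusted p under 0.05. The chaperone gene NAS6 differed most, by -0.47, with 2.07, 1.87 and 1.86 with the tRNA, against 2.38 and 2.43 with the empty vector. RPN6 differed by -0.31, at p under 0.01 in the methods' t-test. Both were called once the 2 D11 arrays with dim spots were left out of the shared spread (adjusted p = 0.0135 and 0.0446, limma). Of all genes, 13.4% were then called higher and 19.6% lower.

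Within the evolved lineages no member passed the threshold between the plasmids either. Shares of all genes here are those called at an adjusted p under 0.05, and none was counted at an unadjusted p. In B3 24 of 37 were higher with the tRNA (median 0.01, 1 at an unadjusted p under 0.05), beside 0.694% of all genes called higher and 0.237% lower. In D11 26 were higher (median 0.05, 6 at an unadjusted p under 0.05), and 2.06% of all genes were called higher and 0.727% lower. The smallest p values were those of RPN3 and of ECM29, which tethers core to cap and had 0.50, 0.63 and 0.54 with the tRNA, against 0.03, 0.12 and -0.29 with the empty vector (difference 0.60 ± 0.17, adjusted p = 0.0682, limma). The 2 ECM29 groups did not overlap. In H9 19 were higher (median 0.03, 2 at an unadjusted p under 0.05), beside 4.19% and 4.33% of all genes called. The H9 slides differed. On slides 1 and 2, 25 and 29 of 37 members were higher with the tRNA, with medians of 0.06 and 0.13, and on slide 3 only 1 was, with a median of -0.20 beside -0.12 over all genes.

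H9 with the empty vector against the ancestor gave no call and 32 of 37 members with a lower mean, a median of -0.14 beside -0.05 over all genes, of which 40.4% were higher. Its 3 arrays stood at -0.19, -0.34 and 0.05 relative to the ancestor mean, so that replicate 3 did not share the shift. That array was scanned on another day than the slides with the empty-vector ancestor arrays, and an effect of the day was not tested. At an unadjusted p under 0.05 there were 3 members, all lower. RPT1, an ATPase of the base, had 2.74, 2.43 and 3.05 in H9 with the empty vector, against 3.12 and 3.07 in the ancestor, a difference of -0.36 ± 0.15 (SE; adjusted p = 0.349). Without replicate 3 of H9 with the empty vector, 4 members fell, among them RPT1 by 0.52 (adjusted p = 0.0333, limma), with no share of all genes counted. Under the tRNA, RPT1 had 2.95, 2.84 and 2.81 in H9, against 3.27, 3.11 and 3.19 in the ancestor, which did not overlap, and the difference was -0.32 ± 0.14 (adjusted p = 0.163, limma, and 0.046 when only these 2 groups were fitted). The methods' t-test had RPT1 as the 1 member at p under 0.01 (0.0574 after Benjamini-Hochberg adjustment), with no share of all genes counted. RPN5 followed with -0.16 (adjusted p = 0.444), and the median of all 37 was -0.02. Between D11 and H9 with the empty vector, ADD66 rose in D11 and PRE8, RPN3, RPN6 and ECM29 fell, beside 31.9% of all genes called in either direction, calls of which none held when only these 2 groups were fitted (adjusted p from 0.218 to 0.331). Between the same lineages with the tRNA limma called 0 members, beside 8.09% of all genes called, and 2 members had an unadjusted p under 0.05.

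**Figure D5:**
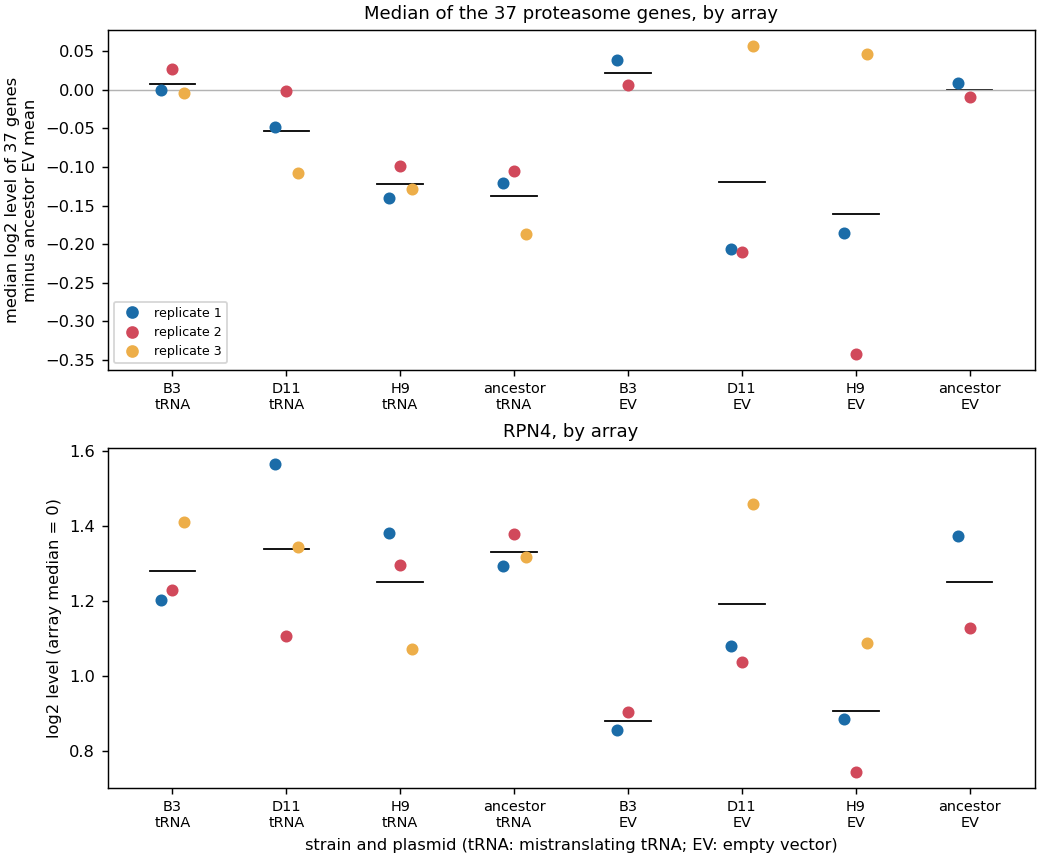
Top: median over the 37 genes of the log2 level relative to the mean of the ancestor with the empty vector, per array. Bottom: log2 level of RPN4 per array. Points are arrays coloured by replicate number and bars are group means. The medians lie between -0.34 and 0.06, with replicate 3 highest in D11 and in H9 with the empty vector, and RPN4 lies between 0.74 and 1.57.

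RPN4, the activator of the other genes, was not called in any lineage by limma with all 8 groups. Its level was 1.20, 1.23 and 1.41 in B3 with the tRNA, 1.57, 1.11 and 1.34 in D11, 1.38, 1.30 and 1.07 in H9, and 1.30, 1.38 and 1.32 in the ancestor with the tRNA. Under the empty vector it was 0.86 and 0.91 in B3, 1.08, 1.04 and 1.46 in D11, 0.89, 0.74 and 1.09 in H9, and 1.37 and 1.13 in the ancestor. B3 and H9 with the empty vector lay below both ancestor arrays on every array, by -0.37 ± 0.17 (SE; unadjusted p = 0.0426, adjusted p = 0.161) and -0.35 ± 0.15 (unadjusted p = 0.0393, adjusted p = 0.384), and neither passed the test. The B3 difference passed when only its 2 groups were fitted (adjusted p = 0.0292, limma). Within B3 the tRNA group was higher than the empty vector group by 0.40 ± 0.15 without overlap (adjusted p = 0.559), and within H9 by 0.34 ± 0.14 (adjusted p = 0.125, limma). The H9 difference passed the test when the 2 D11 arrays with dim spots were left out (adjusted p = 0.0363, limma). In the ancestor the tRNA group differed by 0.08.

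Of the 6 genes whose products act on RPN4 or its protein, 1 was called between tRNA and empty vector in the ancestor, beside 7.98% of all genes higher and 11.1% lower. In the lineages against the ancestor 0 were called, beside the shares of all genes given above. PDR3, a transcription factor of multidrug resistance that can activate RPN4, had -1.29, -1.21 and -1.38 in the ancestor with the tRNA, against -1.86 and -1.96 with the empty vector, and rose by 0.62 ± 0.18 (adjusted p = 0.0227, limma), a call lost without any of 4 single arrays (adjusted p up to 0.159). The PDR3 call was also lost with normexp background correction (0.51, adjusted p = 0.0676, limma). YAP1 and PDR1, further activators, and the heat shock factor gene HSF1 differed by 0.21, 0.19 and 0.02 in the ancestor. UBR2 and MUB1, whose products mark Rpn4 with ubiquitin, differed by 0.52 (adjusted p = 0.105) and -0.30. UBR2 lies on chromosome XII, as do PBA1, IRC25 and RPN13, which are described below for the same comparison.

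With the empty vector the base chaperone genes HSM3 and NAS6 had lower means than the ancestor in all 3 lineages, and RPN14 was lower by more than 0.01 only in B3. The base chaperone gene NAS2, which lies on chromosome IX and is described below, did not share this. It differed by 0.40 in B3, 0.04 in D11 and -0.08 in H9 with the empty vector, and none of these passed the test. The core factors differed in either direction. UMP1, the chaperone that is enclosed in the maturing core and is its first substrate, had 1.08, 1.01 and 0.97 in B3 with the tRNA, 1.07, 1.20 and 0.94 in D11, 0.84, 0.95 and 0.63 in H9 and 0.96, 0.99 and 1.03 in the ancestor with the tRNA. Among the groups with the empty vector it had 1.02 and 1.07 in B3, 0.99, 0.69 and 1.40 in D11, 1.00, 1.14 and 0.95 in H9 and 1.02 and 0.95 in the ancestor. Its differences between lineage and ancestor stayed between -0.19 and 0.08. HSM3, a chaperone of the base ATPase ring, had -0.58, -0.54 and -0.57 in B3 with the tRNA, -0.72, -0.33 and -0.66 in D11, -0.74, -0.95 and -0.72 in H9 and -0.60, -0.51 and -0.91 in the ancestor with the tRNA. Without the tRNA gene it had -0.67 and -0.60 in B3, -0.80, -0.75 and -0.23 in D11, -0.75, -0.73 and -0.39 in H9 and -0.32 and -0.42 in the ancestor. The 3 chaperones HSM3, NAS6 and RPN14 differed from the ancestor by -0.27, -0.41 and -0.20 in B3 with the empty vector, by -0.22, -0.71 and less than 0.01 in size in D11, and by -0.25, -0.10 and less than 0.01 in size in H9, and none passed the test with all 8 groups and arrays. HSM3 passed in B3 when only those groups were fitted (adjusted p = 0.0226, limma) and in D11 without the 2 arrays with dim spots (adjusted p = 0.0333). NAS6 passed in B3 without those 2 arrays (adjusted p = 0.0499), was at p under 0.01 there in the methods' t-test (0.0374 after Benjamini-Hochberg adjustment), and passed in D11 with 75th percentile scaling (-0.77, adjusted p = 0.0442). The NAS6 probe has 1 dim spot on D11 with the empty vector replicate 3. With the dimmer spot left out its D11 difference was -0.22 (adjusted p = 0.32, limma). Without the 2 arrays it was -0.31 (adjusted p = 0.104, limma), and the D11 response of NAS6 minus that of the ancestor was then 0.72. Between tRNA and empty vector in the ancestor they differed by -0.30, -0.47 and -0.21, none called in the fit of all arrays, and the responses of the lineages minus that of the ancestor were positive for all 3 in B3 (0.38, 0.48 and 0.16), D11 (0.32, 0.96 and 0.25) and H9 (0.12, 0.38 and 0.16). These comparisons share the ancestor arrays. BLM10, an activator that caps the core in place of the 19S particle, differed by at most 0.33 in size in any lineage against the ancestor, and had 1 dim spot on both D11 arrays named above.

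A further 8 proteasome genes lie on chromosomes or ends of chromosomes that the study lists with a changed copy number, and they are not among the 37. In B3 with the tRNA 2 of 8 rose and 0 fell (2.66% and 1.44% of all genes), in D11 with the tRNA 2 rose and 0 fell (5.8% and 1.88%), and in H9 with the tRNA 1 rose and 0 fell (4.65% and 6.73%). Under the empty vector 3 rose and 0 fell in B3 (5.99% and 5.94%), 3 rose and 1 fell in D11 (16.5% and 11.7%), and limma called 0 in H9 (0 at an unadjusted p under 0.05, beside 1.71% and 1.52%). RPN2, the large scaffold of the base, on chromosome IX, had 3.35, 3.39 and 3.45 in B3 with the tRNA, against 2.56, 2.91 and 2.62 in the ancestor with the tRNA, and 3.40 and 3.35 in B3 with the empty vector, against 2.91 and 2.78 in the ancestor. It rose by 0.70 (adjusted p = 0.000642) and 0.53 (adjusted p = 0.0119, limma), the second call being lost in the deposited log2 table (adjusted p = 0.0691). NAS2, a base chaperone on the same chromosome, rose by 0.62 in B3 with the tRNA (adjusted p = 0.0159, limma). RPN9 of the lid, near the end of chromosome IV, rose by 0.58 in D11 and by 0.50 in H9 with the tRNA (adjusted p = 0.00903 and 0.0173, limma), and RPT3, a base ATPase gene nearby, by 0.56 in D11 (adjusted p = 0.0125, limma). In D11 with the empty vector RPN2 fell by 0.44 (adjusted p = 0.00909, limma).

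Of the 3 genes on chromosome XII, 2 rose with the tRNA in the ancestor too. PBA1, which partners ADD66, had 1.70, 1.53 and 1.51 in the ancestor with the tRNA, against 0.64 and 1.15 with the empty vector, and IRC25, which partners POC4, had 0.41, 0.38 and 0.51, against -0.20 and 0.02. They rose by 0.68 (adjusted p = 0.0154) and 0.52 (adjusted p = 0.0403, limma), calls that were lost without 2 and 6 single arrays of 22, and the ubiquitin receptor gene RPN13 differed by 0.46 (adjusted p = 0.0825). Where both strains carried the tRNA none of the 3 was called in B3, where they differed from the ancestor by 0.07, 0.08 and 0.18, nor in D11 at 0.28, 0.13 and 0.18, nor in H9 at -0.45, -0.41 and -0.46 (adjusted p = 0.0885, 0.099 and 0.0795, limma), where all 3 had an unadjusted p under 0.05. Where both carried the empty vector PBA1, IRC25 and RPN13 rose in D11 by 0.85, 0.74 and 0.64 (adjusted p = 0.00266, 0.00448 and 0.015, limma), and PBA1 and IRC25 in B3 by 0.64 each (adjusted p = 0.0442 and 0.0332, limma). In H9 they differed by 0.12, 0.14 and -0.21. The D11 calls of PBA1, IRC25, RPN13 and RPN2 with the empty vector were lost when only those groups were fitted (adjusted p from 0.051 to 0.118), and so was that of RPT3 with the tRNA (adjusted p = 0.0694). The B3 calls of PBA1 and IRC25 were lost with normexp (adjusted p = 0.15 and 0.0617), and so was that of IRC25 in the ancestor (adjusted p = 0.0877). Whether the copy number of chromosome XII differed between the ancestor samples was not tested.

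Among 22 genes of ubiquitin transfer and delivery to the proteasome, DDI1 and TOM1 changed most often. DDI1, a shuttle that carries ubiquitinated proteins to the proteasome, had 0.14, 0.25 and 0.16 in B3 with the tRNA, 0.14, 0.14 and 0.15 in D11, 0.10, 0.18 and -0.10 in H9 and 0.88, 1.23 and 1.05 in the ancestor with the tRNA. It fell in all 3 lineages with both plasmids, by 0.87, 0.91 and 0.99 with the tRNA and by 0.83, 1.03 and 0.78 with the empty vector in B3, D11 and H9 (adjusted p at most 0.00156, limma), and with any single array left out it was still called (adjusted p at most 0.0303). In H9 with the empty vector the call was lost when only those groups were fitted (adjusted p = 0.191). DDI1 lies in the end of chromosome V, of which the study lists 1 copy as lost in most of its evolved lines. No label says whether B3, D11 and H9 are among these, and the copy number of DDI1 was not tested. TOM1, a ubiquitin ligase gene near the end of chromosome IV, rose in D11 and H9 with both plasmids, by 0.57 and 0.62 with the tRNA and by 0.78 and 0.80 with the empty vector, the empty-vector calls being lost when only the groups compared were fitted (adjusted p = 0.0653 and 0.187). SSM4, a ligase of the endoplasmic reticulum on chromosome IX, rose in B3 by 0.53 with the tRNA and 0.76 with the empty vector, and UFD1, a partner of Cdc48, by 0.71 with the tRNA. UFD1 lies in the same stretch of chromosome VII as PRE9. HRD1, another ligase of the endoplasmic reticulum, fell by 0.51 in B3 and by 0.44 in D11 with the empty vector and by 0.44 in the ancestor with the tRNA, and within H9 it fell by 0.44 with the tRNA (adjusted p = 0.0338). With normexp background correction none of these 4 calls held (-0.47, -0.23, -0.39 and -0.43, adjusted p = 0.0956, 0.278, 0.103 and 0.0746). The polyubiquitin gene UBI4 fell by 0.82 in D11 with the empty vector, where it had 1.48, 1.50 and 0.86, against 2.18 and 2.02 in the ancestor, and the nuclear ligase gene SAN1 rose by 0.47. Both calls were lost without the 2 arrays with dim spots (adjusted p = 0.075 and 0.0799, limma) and when only those groups were fitted (adjusted p = 0.108 and 0.111). Within D11, UBI4 had 2.63, 2.40 and 2.51 with the tRNA, against 1.48, 1.50 and 0.86 with the empty vector. It rose there by 1.23 ± 0.23 (SE), 2.35-fold (adjusted p = 0.00471, limma), and by 1.08 without the 2 arrays with dim spots (adjusted p = 0.0306), but the call was lost when only the 2 groups were fitted (adjusted p = 0.107). In counts, 2 of 22 rose and 1 fell in B3 with the tRNA (2.66% and 1.44% of all genes), 1 and 1 in D11 (5.8% and 1.88%) and 1 and 1 in H9 (4.65% and 6.73%). With the empty vector 1 and 2 did in B3 (5.99% and 5.94%), 2 and 3 in D11 (16.5% and 11.7%) and 1 and 1 in H9 (1.71% and 1.52%).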

How the data were processed

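RNA of 22 samples was labelled with Cy3 and hybridised to 1-colour Agilent arrays on 3 slides, each with 1 replicate number. The authors deposited spot intensities from Agilent Feature Extraction 10.7.3.1, whose processed signal is background-subtracted and detrended. They also deposited log2 values, which equalled log2 background-subtracted signal with a shift of the whole array (tolerance 0.001, all 275736 positive spots), other spots being listed at 0. Their methods name median centring and Student's test at p under 0.01.

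Log2 processed signals of 12512 spots (6256 probes) per array were used here. Outlier spots (691 in all) were dropped, spots and then probes averaged, and each array centred on its median. The filter asked for a probe above background in all arrays of some group (5940 probes, 5912 genes). Names came from R64 locus tags. Precision is limited by the number of arrays.

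Models used limma (version 3.58.1, R 4.3.3) with all 8 groups, 14 residual and 2.43 prior degrees of freedom, and were tested on simulated data. Members, lists and tests were chosen with earlier results of these data known. All members could be named. Values per array were set for RPN4, PRE9, UMP1, HSM3, up to 3 called members per direction and comparison with the largest difference, and, where none was called, the 2 with the smallest p. Other genes were named after their values were seen, and the pairs of lineages were tested for all genes. Alternatives were 75th percentile scaling, centring on chromosomes with no listed copy number change, normexp (offset 50) on the median signal in place of the mean signal, the deposited log2 table, no filter, only the groups compared, the replicate block, single arrays left out, a 2-fold rule and the methods' t-test. Promoter motifs were not searched and no sequence was used here.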

Additional observations from a re-analysis of the deposited data

Results flagged for a closer look

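Tests of the difference itself separated the lineages, or the responses to the tRNA, for 14 results (limma, adjusted p under 0.05). PRE9 was higher in B3 than in D11 by 0.75 with the empty vector and by 0.71 with the tRNA, and higher in B3 than in H9 by 1.04 and 0.83. Against D11, B3 also had RPN3 higher by 0.39 with the empty vector (adjusted p = 0.0224) and RPN5 higher by 0.35 with the tRNA (adjusted p = 0.0461). The RPN5 call was lost with normexp (adjusted p = 0.218, limma). Against H9 with the empty vector, B3 had RPT1 higher by 0.48 (adjusted p = 0.0322) and RPN8 by 0.47 (adjusted p = 0.0189). In D11 with the empty vector, relative to H9 with the empty vector, ADD66 differed by 0.42 (adjusted p = 0.00356), PRE8 by -0.43 (adjusted p = 0.00834), RPN3 by -0.31 (adjusted p = 0.0196), RPN6 by -0.59 (adjusted p = 0.025) and ECM29 by -0.56 (adjusted p = 0.0188). The RPN6 probe has 1 dim spot on D11 with the empty vector replicate 3, and with the dimmer spot left out its difference from H9 was -0.32 (adjusted p = 0.0185). Without both D11 arrays with dim spots it was -0.27 and the call was lost (adjusted p = 0.0732, limma). The calls of RPN3 (-0.21, adjusted p = 0.0574) and ECM29 (-0.44, adjusted p = 0.0728) were lost there too, while those of PRE8 and ADD66 held. The response of RPN3 to the tRNA in D11 exceeded that in the ancestor by 0.48 (adjusted p = 0.0345). Of all genes, 10.5% were called between B3 and D11 with either plasmid and 31.9% between D11 and H9 with the empty vector. Between B3 and H9 it was 25.1% with the empty vector and 16.5% with the tRNA. For the D11 response 7.22% were called higher and 6.12% lower. In fits of only the groups compared, the calls of PRE9 against H9 and of PRE9 and RPN5 with the tRNA against D11 held. The others were lost (adjusted p from 0.101 to 0.364, limma). These comparisons share arrays and are not independent.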

How the results depend on the processing

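No result changed sign past the threshold under any alternative run. Counts of members called, given as higher and then lower in each group against its reference, moved as follows. Beyond the main fit, shares of all genes were counted only without the dimmer spot and without both D11 arrays. Fitting only the groups compared gave 3 and 5 in B3 with the empty vector, 0 and 0 in D11 with the empty vector, 1 lower in H9 with the tRNA, 2 lower with the tRNA in the ancestor and 0 higher in the D11 response minus the ancestor response. The 2-fold rule left 0 in each of these comparisons. The methods' t-test at p under 0.01 gave 2 lower in B3 with the empty vector, 3 higher in B3 with the tRNA, 0 in D11 with the empty vector, 1 and 1 in D11 with the tRNA, 1 lower in H9 with the tRNA, 1 higher with the tRNA within D11 and 1 lower in the ancestor. After Benjamini-Hochberg adjustment it gave 2 lower in B3 with the empty vector, 0 in B3 with the tRNA, 0 in D11 with the empty vector and 1 lower in the ancestor. Scaling to the 75th percentile gave 8 lower in D11 with the empty vector and 2 higher both in its response and within D11. The deposited log2 table gave 7 lower in D11 with the empty vector, 1 lower in H9 with the tRNA, 1 higher in the ancestor and 0 for the D11 response, as did normexp. Leaving out the dimmer spot gave 0 and 8 in D11 with the empty vector, 4 for its response and 2 lower in the ancestor. Of all genes, 17.7% and 17.5% were then called in D11, 13.1% higher for its response and 16.7% lower in the ancestor. Without both D11 arrays there were 5 lower in D11 with the empty vector, 2 for its response, 1 lower in B3 with the empty vector, 1 higher within H9 and 2 lower in the ancestor. The shares of all genes there were 16.9%, 15.5%, 11.9%, 10.4% and 19.6% in the same order and directions. The median of the members became -0.092 (chromosomes with no listed change) and -0.064 (deposited table) in the ancestor, -0.014 (75th percentile) and 0.094 (chromosomes with no listed change) in B3 with the empty vector, 0.087 (deposited table) and 0.094 (normexp) for the B3 response, -0.24 (deposited table) in D11 with the empty vector, and -0.043 (deposited table) and 0.015 (normexp) in D11 with the tRNA. PRE9 relative to the other core subunits was 0.64 and 0.80 within slides 1 and 2 in B3 with the empty vector and 0.84 within slide 2 with the tRNA. The causes of these shifts were not tested.

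Leaving out single arrays, PRE9 relative to the other core subunits ran from 0.67 to 0.78 (B3 with the empty vector) and from 0.57 to 0.70 (with the tRNA). Members called higher ran from 0 to 1 in B3 and in D11 with the empty vector, 0 to 4 for the D11 response, 0 to 2 within D11 and 0 to 1 for the H9 response. Members called lower ran from 0 to 2 in the ancestor, 1 to 7 in D11 and 0 to 4 in H9, both with the empty vector. Medians ran from -0.15 to -0.093 in the ancestor, 0.0020 to 0.038 in B3 with the empty vector and 0.10 to 0.18 for the B3 response.

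With the replicate number as a block, the count of members called lower in D11 with the empty vector was 2 and no other count moved, PRE8 there was at -0.32 (adjusted p = 0.0606) and IRC25 in the ancestor at 0.46 (adjusted p = 0.0507). Over 71 pairs of arrays with the same number the deviations correlated from -0.56 to 0.60 (median 0.02), with 23 over 0.1, so the numbers were not taken to pair the samples.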
